A study of Homo sapiens with 48 samples.

Results

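HOX genes encode homeodomain transcription factors that sit in 4 chromosomal clusters (HOXA, HOXB, HOXC and HOXD) and mark position along the head-to-tail axis. In vertebrate embryos, genes at the 3′ end of a cluster (low paralogue numbers) are switched on first and reach the hindbrain, and genes at the 5′ end (high numbers) are used in the trunk, tail and limbs. Forebrain and midbrain lack HOX expression, and retinoic acid is a known activator of the 3′ genes. The members were all genes with a symbol of the form HOX, a cluster letter and a number. The table held 36 of the 39 human genes of this form among 19253 genes, and 35 are described here (9 in HOXA, 10 in HOXB, 8 in HOXC and 8 in HOXD).

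RNA was sequenced from wild-type H9, a line of human embryonic stem cells, in 48 libraries of 24 groups with 2 libraries each. Cells differentiated as a monolayer in E6 medium for 8 days in the presence of a compound or of solvent. The groups given a compound together with S9 were ACE_S9, CYC_S9, IMI_S9, TDCIPP_S9, TEP_S9 and TPHP_S9, and S9 commonly names a liver fraction that metabolises test compounds. The same 6 compounds were given without S9 and are called the NEO and OPE compounds here. Another 9 compounds, BHA, TBHQ, DG, DTBP, BHT, BHT_COOH, BHT_CHO, AO_2246 and AO168_O, are called the SPA compounds. The family of each compound was read from its abbreviation and is an assumption. DMSO_S9 and DMSO were the solvent controls, and D0 was sampled on day 0. All groups share this 1 cell line, and doses and culture batches are not given in the labels.

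Library totals were between 17918890 and 20096131 counts, so that 3 counts, the limit allowed by a count of 0, correspond to 0.149 to 0.167 CPM (counts scaled to library size) in a library. Both DMSO_S9 libraries stood apart, with correlations of 0.935 and 0.935 with the median day 8 profile against at least 0.968 in the other day 8 libraries. The libraries next lowest were those with most HOX counts, CYC replicate 1 (0.968), CYC replicate 2 (0.974), TEP replicate 1 (0.976), ACE replicate 2 (0.977) and TPHP replicate 1 (0.978), whereas SPA compounds lay at 0.985 to 0.994. DG replicate 1 had a count in 17996 genes, against 17072 to 17390 in the other 47 libraries. The 7 pluripotency markers summed to 6767 and 6923 CPM in D0, and SOX1, a marker of neural ectoderm, stayed under 1 CPM in every set of groups. The labels do not say that the 2 libraries of a group came from separate cultures, and p-values then measure the spread between libraries only. In bulk RNA, a change in the number of expressing cells and a change in RNA per cell cannot be told apart.

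HOXB1 was the single gene among the 4 detected best whose promoter was in the RefSeq table used here, and it is shown because HOX proteins with PBX partners are known to bind and maintain Hoxb1 in mouse. The window holds the 250 bases before its start at chr17:48531012-48531261 (GRCh38.p14, minus strand). Capitals mark matches to the PBX-HOX motifs TGATNNAT and AGATNNAT, searched on both strands.
HOXB1: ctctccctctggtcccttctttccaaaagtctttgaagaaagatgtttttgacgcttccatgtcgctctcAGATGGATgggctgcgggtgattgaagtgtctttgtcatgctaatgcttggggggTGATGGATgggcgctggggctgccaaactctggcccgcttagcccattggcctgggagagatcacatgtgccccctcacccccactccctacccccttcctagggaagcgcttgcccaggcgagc
A match to TGATNNAT lay 125 bases before the start, and 6.47% of 35116 promoter windows of this length held at least 1. A match to AGATNNAT lay at position -180 relative to the start, and 6.44% of windows held at least 1. The letters TGACAG (a MEIS motif, in 13% of windows) and AGGTCA (the half-site of retinoic acid receptors, in 12.1%) were not found in this window.

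HOX transcripts were scarce in all libraries. The 35 members together had 3 to 162 counts per library, and 27 of them never passed 3 counts in any library. A mean of 1 CPM in at least 1 group was reached by 4 members: HOXB1, HOXB2, HOXB3 and HOXC13. Of the 10 members with paralogue numbers 1 to 4, 3 reached it, and of the 25 with numbers 5 to 13, only HOXC13 did. These 4 were also the only ones of the 35 that passed the filter on low counts, so the other 31 were not tested with the filter. They passed it through the NEO and OPE libraries, where their highest counts were 25 for HOXB1, 70 for HOXB2, 24 for HOXB3 and 57 for HOXC13, while no other library had over 4, 5, 3 and 7 counts of them in the same order. How many of the 4 were called higher in those compounds, or lower where S9 was added to them, is thus no evidence about HOX genes as a whole.

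**Figure D1:**
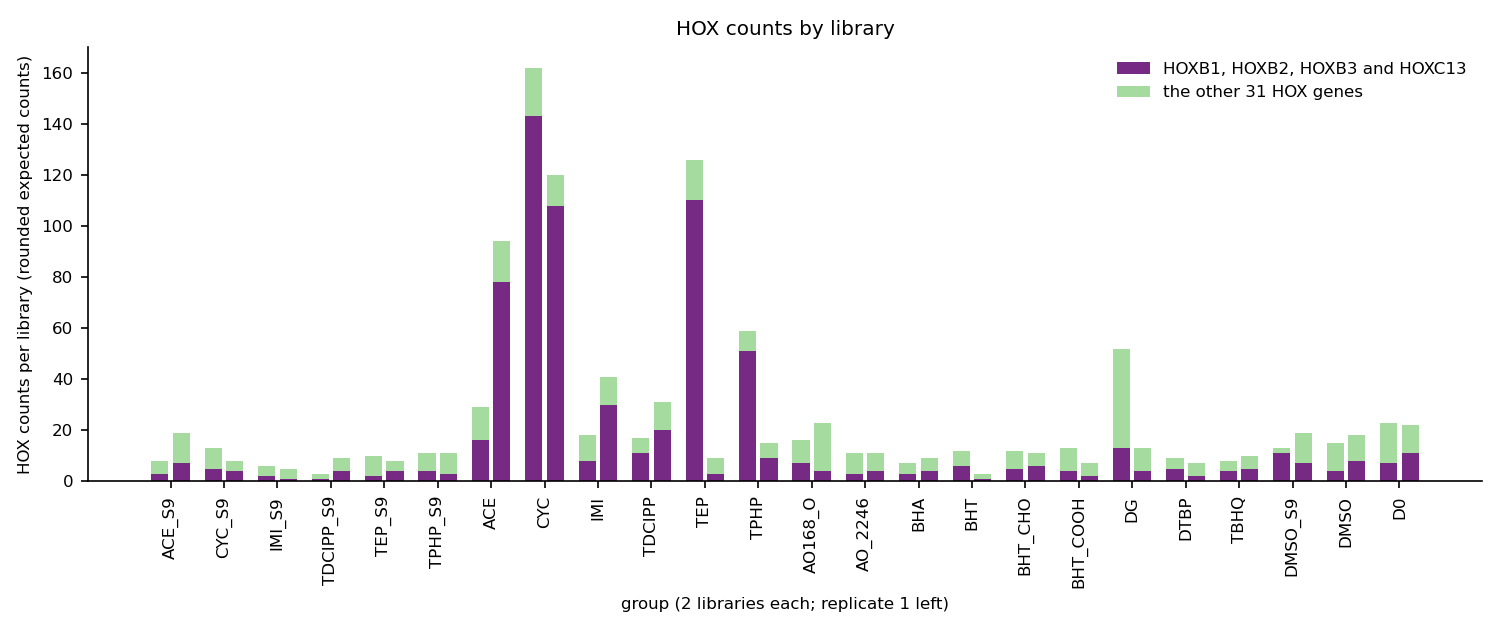
Rounded counts of HOX genes in each of the 48 libraries, in pairs by group, with the 4 genes that reached 1 CPM in purple and the other 31 in green. The purple part is tallest in CYC replicate 1 (143 counts), and DG replicate 1 is the only library in which the green part passes 19 counts.

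The counts of the 4 detected genes, which were picked for a level that only NEO and OPE compounds reached, are given as a description. In the 12 libraries of NEO and OPE compounds with S9 they summed to 1 to 7 counts per library (median 3.5), against 3 to 143 (median 25) in the 12 libraries of the same compounds without S9. The SPA compounds had 1 to 13 counts in 18 libraries (median 4), DMSO_S9 had 11 and 7, DMSO had 4 and 8, and D0 had 7 and 11. The 4 genes made up 587 of 721 HOX counts in NEO and OPE compounds and 82 of 234 in SPA compounds, a difference that this choice fixes.

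The other 31 members had 6 to 19 counts per library in NEO and OPE compounds (median 11) and 2 to 39 in SPA compounds (median 5.5). The value of 39 came from DG replicate 1, in which 24 of the 35 members had a count, and the next highest of all libraries was 19. The 8 HOXD genes together had 14 counts in the 12 NEO and OPE libraries and 25 in the 18 SPA libraries. HOXB7 reached the highest single count of the 31, 7 in CYC replicate 1, with 31 counts in NEO and OPE compounds (0 to 7 per library) and 10 in SPA compounds (0 to 5).

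**Figure D2:**
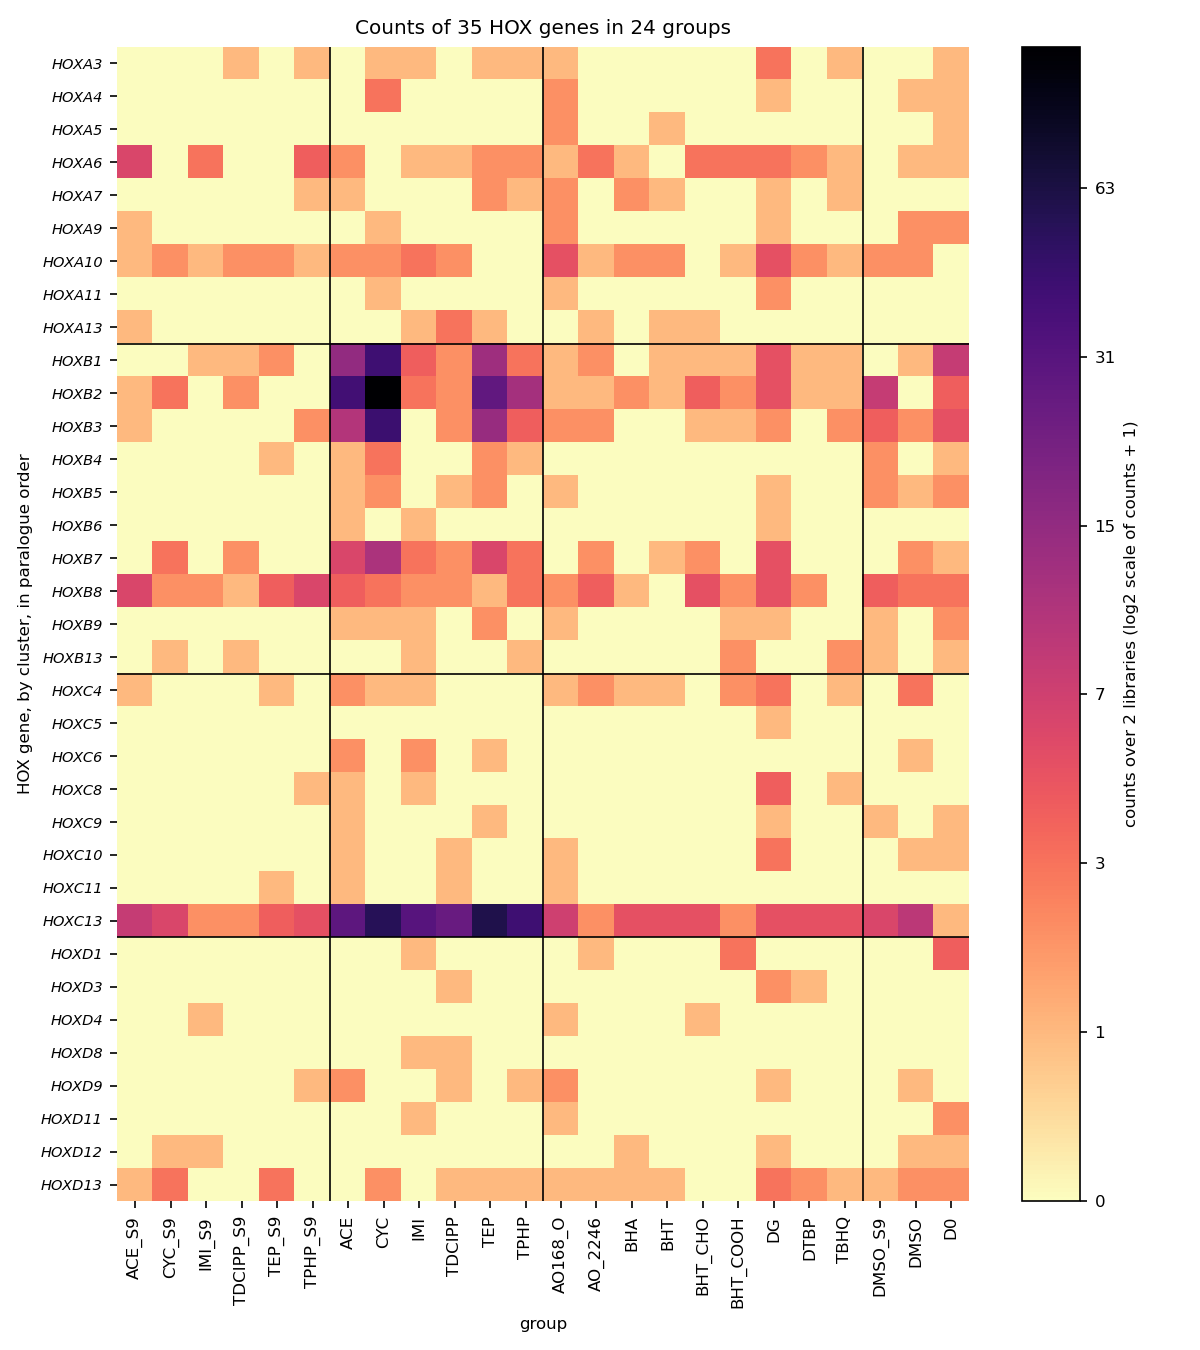
Counts of each of the 35 members (rows, by cluster in paralogue order) summed over the 2 libraries of each group (columns), on a log2 colour scale of counts + 1. The darkest cells lie in the rows of HOXB1, HOXB2, HOXB3 and HOXC13 and in columns of NEO and OPE compounds without S9, up to 113 counts for HOXB2 in CYC. Not every such cell is dark. HOXB3 had 0 counts in IMI, and HOXB1, HOXB2 and HOXB3 had at most 2 counts in a TDCIPP library.

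HOXB1, which sets the identity of rhombomere 4 in the mouse hindbrain, lies at chr17:48528526-48531001 (GRCh38, minus strand). It had 25 and 16 counts in CYC, 13 and 0 in TEP, 3 and 12 in ACE, 1 and 3 in IMI, 0 and 2 in TDCIPP and 3 and 0 in TPHP, against 0 and 1 in DMSO. Only the CYC pair had over 10 counts in both libraries. In SPA compounds it had 0 to 3 counts (median 0.5), and D0 had 4 and 4.

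HOXB2, a hindbrain gene and a target of Hoxb1 in mouse, lies at chr17:48540894-48544989 (minus strand). It had 70 and 43 counts in CYC, 3 and 37 in ACE, 27 and 0 in TEP, 12 and 0 in TPHP, 0 and 3 in IMI and 1 and 1 in TDCIPP, against 0 and 0 in DMSO, where 0 allows up to 0.0766 CPM. TEP and TPHP thus had the gene in 1 library of the pair only. In SPA compounds it had 0 to 5 counts (median 1), with the 5 in DG replicate 1, and DMSO_S9 had 4 and 4.

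HOXB3, expressed from the hindbrain backwards, lies at chr17:48548870-48604912 (minus strand), a span that contains HOXB4 and HOXB5 and overlaps HOXB6. It had 24 and 19 counts in CYC, 13 and 1 in TEP, 2 and 8 in ACE, 4 and 0 in TPHP, 0 and 2 in TDCIPP and 0 and 0 in IMI, against 2 and 0 in DMSO. As for HOXB1, only the CYC pair had over 10 counts in both libraries. In SPA compounds it had 0 to 2 counts, and D0 had 2 and 3.

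HOXC13, the most 5′ gene of its cluster, is known for its role in hair and nail and lies at chr12:53938765-53946544 (plus strand). It had 57 and 2 counts in TEP, 24 and 30 in CYC, 32 and 9 in TPHP, 7 and 24 in IMI, 8 and 21 in ACE and 10 and 15 in TDCIPP, against 2 and 7 in DMSO. Of the 12 NEO and OPE libraries, 10 lay above both DMSO libraries. The share of all genes in such an order was not computed. SPA compounds had 0 to 5 counts in 18 libraries (median 2), and D0 had 0 and 1. It was the member seen in most libraries, with a count in 44 of 48.

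**Figure D3:**
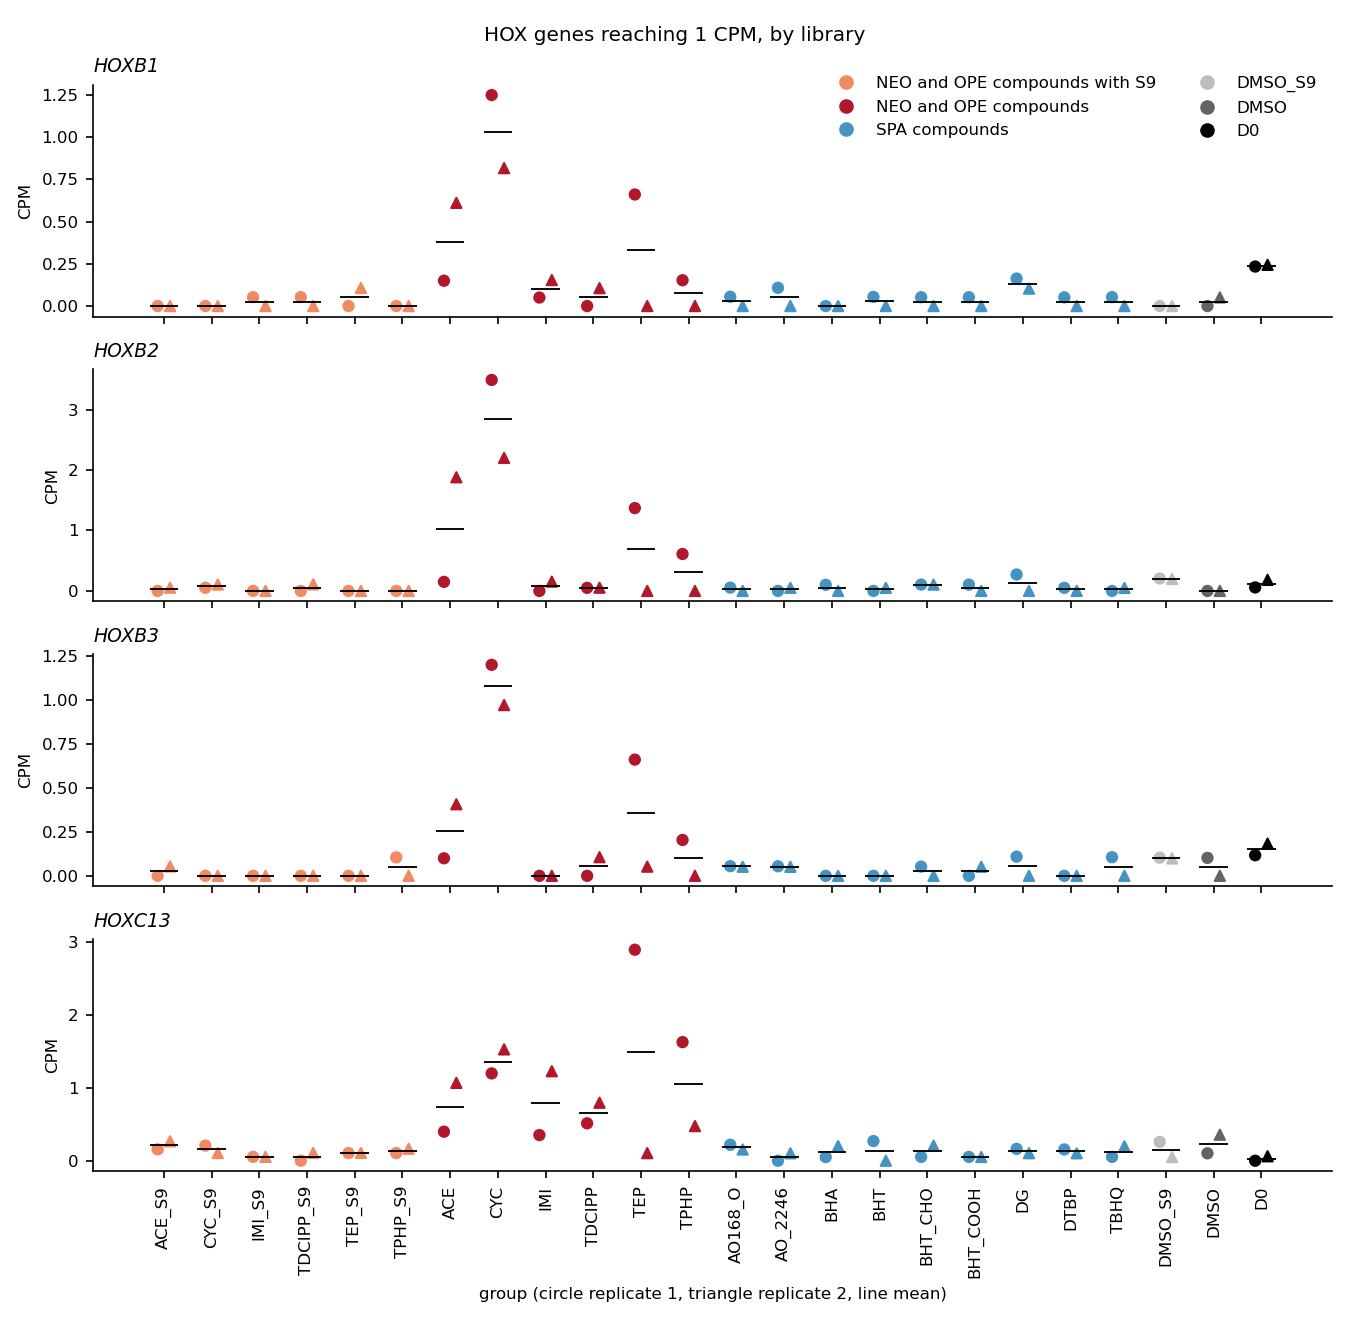
CPM of the 4 members in each library (circle replicate 1, triangle replicate 2) with the group mean as a line, by group. CYC is high in both libraries for all 4 genes, whereas TEP is high in replicate 1 and near 0 in replicate 2.

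On the TPM scale (transcript abundance scaled by gene length and library size), which allows genes to be compared, HOXB2 was the most abundant member in CYC, with a mean level of 4.58 TPM. HOXC13 followed with 1.25, HOXB1 with 1.09 and HOXB3 with 0.75 TPM. In TEP the order differed, with HOXC13 at 1.33, HOXB2 at 1.06, HOXB1 at 0.34 and HOXB3 at 0.19 TPM, and replicate 1 gave nearly all of it. In ACE, HOXB2 averaged 1.68 TPM, with 0.21 TPM in replicate 1 and 3.15 TPM in replicate 2. None of the other 31 members passed 0.55 TPM in any library.

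CYC against DMSO raised all 4 genes that passed the filter, which they did through CYC and the other NEO and OPE compounds (edgeR's quasi-likelihood test, Benjamini-Hochberg adjusted p under 0.05), in a comparison that called 14.4% of 16115 genes higher. HOXB2 averaged 2.84 ± 0.91 CPM in CYC and was at 0 in DMSO (SD, n = 2 libraries each), which makes it at least 37.2-fold higher (adjusted p = 0.0015, edgeR). HOXB1 had 41 counts in CYC and 1 in DMSO, a ratio of 40.5 with an interval of 6.87 to 1640 (adjusted p = 0.0060, edgeR). HOXB3 had 43 counts in CYC and 2 in DMSO, a ratio of 21.2 with an interval of 5.53 to 181 (adjusted p = 0.0075, edgeR). HOXC13 averaged 1.36 ± 0.24 CPM in CYC and 0.23 ± 0.18 CPM in DMSO, a log2 fold change of 2.54 ± 0.94 (SE, edgeR adjusted p = 0.041). The CYC and DMSO libraries did not overlap for any of the 4, which is no added support, since the 4 passed the filter through these compounds. The share of all genes without overlap between these libraries was not computed. HOXC13 lost its call in DESeq2 (adjusted p = 0.074) and in each fit that left out 1 CYC or DMSO library (adjusted p 0.058 to 0.28, edgeR), and the number of calls was 1 in DESeq2 (HOXB2) and 2 without either DMSO library.

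ACE against DMSO raised 1 of the 4 genes, with 4.95% of 16115 genes called higher. HOXB2 had 40 counts in ACE and 0 in DMSO, at least 13.2-fold higher (adjusted p = 0.043, edgeR). The call was lost without ACE replicate 2 (adjusted p = 0.59, edgeR), without either DMSO library (adjusted p 0.14 and 0.22, edgeR) and when only the ACE and DMSO libraries were fitted, where HOXB2 did not pass the filter. HOXC13 averaged 0.734 ± 0.473 CPM in ACE and 0.23 ± 0.18 CPM in DMSO (adjusted p = 0.32, edgeR).

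TEP, TPHP, IMI and TDCIPP gave no HOX call against DMSO in edgeR, although 3, 1, 0 and 0 of the 4 genes had an unadjusted p under 0.05. Of all 16115 genes, 4358, 4241, 3461 and 3986 had an unadjusted p under 0.05 in the same order. At the adjusted threshold all genes were called at a rate of 12.7% in TEP, 11.3% in TPHP, 6.21% in IMI and 9.07% in TDCIPP. DESeq2 gave an adjusted p for 1 of these 16 gene and compound pairs and called 0. TEP came nearest, with adjusted p of 0.055 for HOXC13 and 0.063 for HOXB2 (edgeR). Without TEP replicate 2, which had at most 2 counts of each gene, 3 of 4 genes were called, but that leaves the higher library alone, assumed to vary like the other groups, and the calls are no support for a change. The 9 SPA compounds gave no call in 36 gene and compound pairs, with 0 pairs at an unadjusted p under 0.05 and adjusted p of 0.43 to 1.0 (edgeR). Of all 16115 genes, 919 (AO168_O) to 4072 (AO_2246) had an unadjusted p under 0.05. DESeq2 gave an adjusted p for 5 of these 36 pairs and called 0. The share of all genes called was 10.4% in AO_2246, 5.46% in DG, 4.57% in BHT, 3.07% in DTBP, 2.15% in BHT_CHO, 0.161% in TBHQ, 0.00621% in both BHA and BHT_COOH and 0.0% in AO168_O. All 15 comparisons share the same 2 DMSO libraries.

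A comparison that uses no solvent library set the 6 NEO and OPE compounds against the 9 SPA compounds. HOXC13 averaged 1.02 CPM in NEO and OPE compounds and 0.119 CPM in SPA compounds, a log2 fold change of 3.05 ± 0.40 (SE, edgeR adjusted p = 1.8e-07), with 11 of 12 NEO and OPE libraries above all 18 SPA libraries. HOXB2 had 197 counts in NEO and OPE compounds and 18 in SPA compounds, a log2 fold change of 2.93 ± 0.93 (SE, edgeR adjusted p = 0.0080), with 5 of 12 NEO and OPE libraries above all SPA libraries. HOXB1 had 78 counts in NEO and OPE compounds and 13 in SPA compounds, a ratio of 8.87 with an interval of 4.90 to 17.4 (adjusted p = 0.0039, edgeR), and 4 of 12 libraries lay above all SPA libraries. In this comparison 33.1% of 16115 genes were called higher. These genes passed the filter through the NEO and OPE libraries, so the orders of libraries are no added support. The share of all genes with such orders was not computed. Without TEP replicate 1 or TPHP replicate 1 the only call was HOXC13, since HOXB1 and HOXB2 could not be fitted.

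The planned average of log levels could not be fitted for HOXB3, because IMI was at 0 in both libraries. HOXB3 had 73 counts in NEO and OPE compounds and 10 in SPA compounds, a ratio of 10.8 with an interval of 5.55 to 23.4. Of the 12 NEO and OPE libraries, 5 lay above all SPA libraries, again without a computed share of all genes. With 1 coefficient per family, a fit added after the data were seen, all 4 genes were called higher (33.3% of 15944 genes), with log2 fold changes of 3.85 ± 0.71 for HOXB2, 3.16 ± 0.68 for HOXB3, 3.04 ± 0.37 for HOXC13 and 2.94 ± 0.62 for HOXB1 (SE). That fit treats the libraries of a family as replicates, although pairs share a compound. All 4 were also called in each of the 13 repeats that left out 1 NEO or OPE library or DG replicate 1. Over all genes, 5180 of 16210 to 5505 of 16107 were called higher in these repeats. The repeats are no independent support, since the 4 genes passed the filter through the NEO and OPE libraries.

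With S9 the 6 compounds showed HOX counts near those of the SPA compounds. HOXC13 had 0 to 5 counts in the 12 libraries with S9 (27 in all), against 2 to 57 in the 12 libraries without S9 (239 in all), a ratio of 0.117 with a 95% counting interval of 0.0755 to 0.174. HOXB2 had 6 counts with S9 against 197 without, HOXB1 had 4 against 78 and HOXB3 had 3 against 73. HOXC13 had fewer counts with S9 in each compound. There were 6 counts in CYC_S9 against 54 in CYC, 4 in TEP_S9 against 59 in TEP, 5 in TPHP_S9 against 41 in TPHP, 2 in IMI_S9 against 31 in IMI, 8 in ACE_S9 against 29 in ACE and 2 in TDCIPP_S9 against 25 in TDCIPP. Averaged over 7 treatments, DMSO included, HOXC13 fell by 2.75 ± 0.45 on the log2 scale (SE, edgeR adjusted p = 2.7e-05), and HOXB1 was also called lower (adjusted p = 0.011, edgeR), with 17.9% of 16115 genes called lower. HOXB1 could not be fitted without DMSO replicate 2, TDCIPP replicate 2, TEP replicate 1 or TPHP replicate 1, which left HOXC13 alone. Both genes passed the filter through libraries without S9, and the average includes the DMSO_S9 libraries, which stood apart.

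That average could not be fitted for HOXB2 and HOXB3, since DMSO and IMI without S9 were at 0. With treatment and S9 as terms over the 28 libraries all 4 genes, which passed the filter through the libraries without S9, were lower with S9 (15% of 15984 genes), HOXB2 by 3.29 ± 0.82 on the log2 scale (SE). With compound and S9 as terms and both DMSO groups left out, another fit added after the data were seen, all 4 were again lower (25.2% of 15795 genes). HOXB2 fell by 4.63 ± 0.78, HOXB3 by 3.92 ± 0.74, HOXB1 by 3.74 ± 0.71 and HOXC13 by 3.02 ± 0.45 on the log2 scale (SE, largest edgeR adjusted p = 0.00025).

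**Figure D4:**
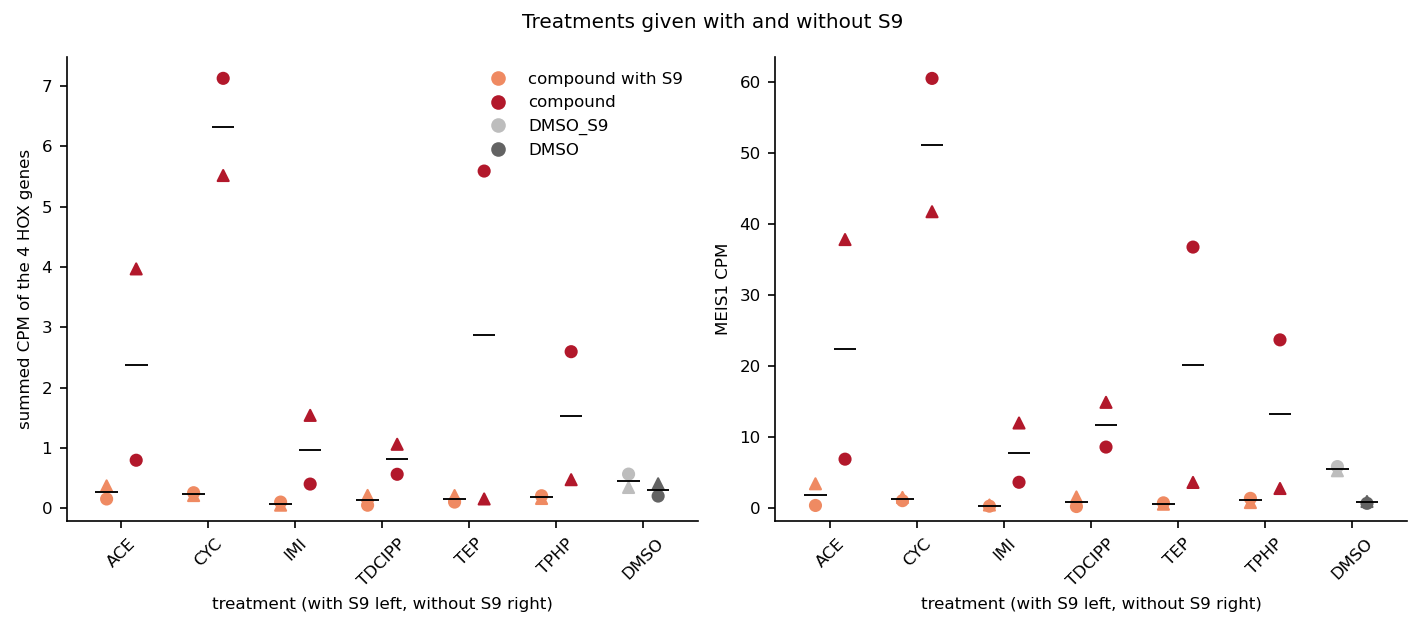
Summed CPM of the 4 HOX genes (left) and CPM of MEIS1 (right) in each library of the 7 treatments given with S9 (left of each pair) and without it (right of each pair), with lines at group means. With S9 the compounds lie between 0.0528 and 0.373 CPM for the HOX sum, against 0.157 to 7.13 CPM without it.

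Against their own solvent control, the compounds with S9 gave no HOX call in 24 gene and compound pairs (edgeR, 0 pairs at an unadjusted p under 0.05, adjusted p of 0.17 to 1.0; DESeq2 called 0). Of all 16115 genes, 8771 (ACE_S9) to 9032 (TEP_S9) had an unadjusted p under 0.05 in these comparisons. The share of all genes called was 48.5% in ACE_S9, 50.4% in CYC_S9, 49.5% in IMI_S9, 50.6% in TDCIPP_S9, 50.6% in TEP_S9 and 50.4% in TPHP_S9. DMSO_S9 against DMSO gave no call among the 4 genes either, where 45.7% of 16115 genes were called (edgeR, 0 genes at an unadjusted p under 0.05; DESeq2 called 0). An unadjusted p under 0.05 was reached there by 8489 of all 16115 genes (edgeR). HOXB2 had 4 and 4 counts in DMSO_S9 against 0 and 0 in DMSO. The test of the difference between compound effects with and without S9 rests on DMSO_S9, and it called 1 of the 4 genes, HOXB2 (adjusted p = 0.0096, edgeR), beside 50.9% of 16115 genes. HOXC13 missed the threshold there (adjusted p = 0.16, edgeR), and HOXB1 and HOXB3 could not be fitted. HOXB2 could not be fitted either without IMI replicate 2, TEP replicate 1 or TPHP replicate 1.

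HOX counts were low on both day 0 and day 8 in solvent. DMSO against D0 called none of the 4 genes (edgeR, adjusted p 0.13 to 0.44, 0 genes at an unadjusted p under 0.05; DESeq2 called 0), while 58.2% of 16211 genes were called. Of these 16211 genes, 10090 had an unadjusted p under 0.05 (edgeR). The 35 members summed to 15 and 18 counts in DMSO, against 23 and 22 in D0. HOXB1 had 0 and 1 counts in DMSO against 4 and 4 in D0, and HOXC13 had 2 and 7 in DMSO against 0 and 1 in D0. At these counts a change of a few counts per library was not detectable.

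Replicates of a NEO or OPE compound differed, mostly in the same direction for the 4 genes. Replicate 2 was higher than replicate 1 for the 4-gene sum in ACE (78 against 16 counts), IMI (30 against 8) and TDCIPP (20 against 11). Replicate 1 was higher in CYC (143 against 108), TEP (110 against 3) and TPHP (51 against 9). Each gene was also set against the summed counts of the other 3 members. HOXB1 had its higher library where they did in 6 of 6 pairs. HOXB2 and HOXB3 did so in 5 of 6, with the counts of HOXB2 level in TDCIPP and of HOXB3 level in IMI. HOXC13 did so in 5 of 6, with CYC the other way round. Some of these orders rest on few counts, such as 0 and 2 of HOXB1 and of HOXB3 in TDCIPP. How many of all genes keep this order was not computed, so the agreement does not single out HOX genes.

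MEIS1, a cofactor that binds DNA with HOX and PBX proteins, followed the same libraries. It had 1215 and 818 counts in CYC, 139 and 744 in ACE, 724 and 70 in TEP, 466 and 53 in TPHP, 168 and 281 in TDCIPP and 73 and 234 in IMI, against 14 and 19 in DMSO. The library with more HOX was the one with more MEIS1 in 6 of 6 pairs. That library also lay further from the median day 8 profile in each pair, with correlations of 0.968 to 0.986 against 0.974 to 0.993. The share of all genes that keep this order was not computed, so whether the order is particular to MEIS1 was not tested. MEIS1 was at 2.80 to 60.6 CPM in NEO and OPE compounds against 0.212 to 2.59 CPM in SPA compounds, without overlap. The share of all genes without overlap between these families was not computed, while 33.1% of 16115 genes were called higher. DMSO_S9 had 114 and 107 counts of MEIS1. Replicate 2 had more MEIS1 CPM than replicate 1 in all 9 SPA compounds and in DMSO, and in 3 of 6 NEO and OPE compounds.

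Sums of some marker lists of other cell types moved with the HOX genes. All 5 amnion markers were higher in NEO and OPE than in SPA compounds, beside 33.1% of all genes. They averaged over 1 CPM in NEO and OPE compounds and summed to 41.8 to 407 CPM in NEO and OPE compounds, against 14.2 to 27.6 CPM in SPA compounds, where HAND1 and VTCN1 averaged under 1 CPM. Of the 8 surface ectoderm markers, 7 passed 1 CPM in both families, with KRT5 below it. The 8 summed to 3542 to 6195 CPM in NEO and OPE compounds against 1004 to 2350 CPM in SPA compounds. Of 7 tested, 5 were called higher and 1 lower in NEO and OPE than in SPA compounds (33.1% and 33.4% of all genes). The 4 endoderm markers summed to 6.79 to 11.2 CPM in NEO and OPE compounds against 2.15 to 4.87 CPM in SPA compounds, with SOX17 and FOXA2 under 1 CPM in both and GATA6 under 1 CPM in SPA compounds. All 3 sums were also higher in the HOX-high library of each pair in 6 of 6 compounds. The 7 neural ectoderm markers summed to 352 to 671 CPM in NEO and OPE compounds against 861 to 1135 CPM in SPA compounds, with SOX1 under 1 CPM in both and ZIC1 under 1 CPM in NEO and OPE compounds. Their sum was lower in the HOX-high library in 6 of 6 pairs. With S9, the same compounds had 15.9 to 42.1 CPM of amnion markers and 666 to 878 CPM of neural ectoderm markers. How many of all genes keep the same order within pairs was not computed, so the pair counts do not single out these markers. The part of these cell types in the HOX result was not tested.

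**Figure D5:**
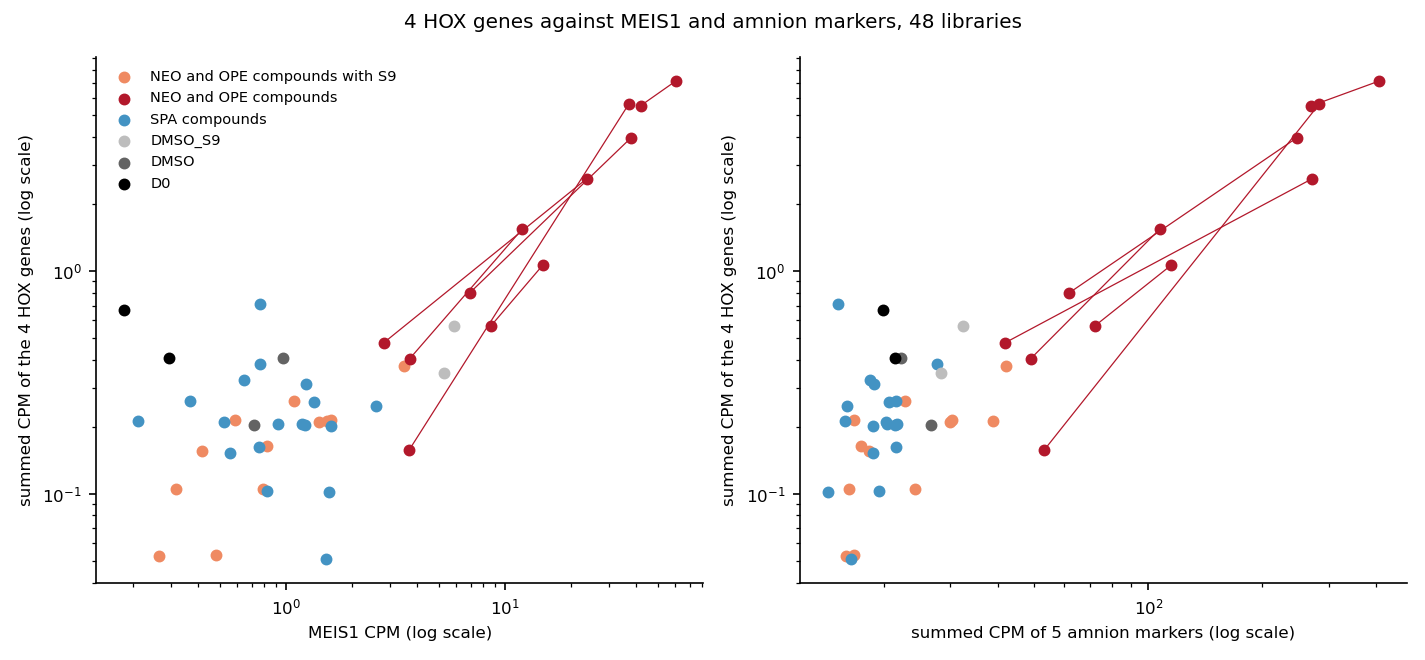
Summed CPM of the 4 HOX genes against MEIS1 CPM (left) and against the sum of 5 amnion markers (right) in 48 libraries, on log axes, coloured by set, with a line joining the 2 libraries of each NEO or OPE compound. Every line rises to the right in both panels, and libraries of the other sets reach at most 0.708 CPM of HOX.

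Sums of the other marker lists overlapped between the families or were lower in NEO and OPE compounds. The 8 paraxial and lateral mesoderm markers summed to 24.3 to 36.04 CPM in NEO and OPE compounds and 22.6 to 32.7 CPM in SPA compounds, and MESP1, MSGN1, MEOX1, FOXF1 and HAND2 averaged under 1 CPM in both. The 5 trophoblast markers summed to 12.9 to 17.8 CPM in NEO and OPE compounds and 10.6 to 24.5 CPM in SPA compounds, with CGA and CGB5 under 1 CPM in both and XAGE2 in SPA compounds. The 6 neural crest markers summed to 49.9 to 69.7 CPM in NEO and OPE compounds and 67.9 to 90.1 CPM in SPA compounds. The 4 neuron markers summed to 65.8 to 104 CPM in NEO and OPE compounds and 94.8 to 159 CPM in SPA compounds. The 4 blood and endothelium markers, with CDH5 and TAL1 under 1 CPM, summed to 12.9 to 33.1 CPM in NEO and OPE compounds and 42.9 to 93.8 CPM in SPA compounds. The 7 pluripotency markers summed to 2541 to 3270 CPM in NEO and OPE compounds and 2266 to 4026 CPM in SPA compounds. Within pairs, the pluripotency sum was lower in the HOX-high library in 6 of 6 compounds, and the neural crest and the blood and endothelium sums were lower there in 5 of 6. The neuron sum was lower there in 4 of 6, and the trophoblast and mesoderm sums in 3 of 6.

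Of the 9 HOX cofactors of the PBX, MEIS and PKNOX families, 5 were higher and 1 lower in NEO and OPE than in SPA compounds, where 33.1% and 33.4% of all genes were called in these directions, with a median log2 fold change of 0.10 beside 0.0081 over all genes tested. MEIS1 led with a log2 fold change of 4.09 ± 0.37 (SE, edgeR adjusted p = 2.6e-10), followed by MEIS2 with 1.60 ± 0.17, PKNOX2 with 0.45 ± 0.08 and PBX2 with 0.10 ± 0.03. MEIS2 was at 13.5 to 44.6 CPM in NEO and OPE compounds against 2.51 to 13.4 CPM in SPA compounds. With S9 averaged over treatments, 3 cofactors were higher and 5 lower (15.7% and 17.9% of all genes), and MEIS1 fell by 3.20 ± 0.43 on the log2 scale. In DMSO against D0, 5 were higher and 1 lower (29.1% of all genes in each direction), and MEIS1 was not called (adjusted p = 0.39, edgeR).

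Of 14 genes of retinoic acid synthesis, binding, breakdown and reception, 3 were higher and 10 lower in NEO and OPE compounds than in SPA compounds, where 33.1% and 33.4% of all genes were called in these directions. RARB, a receptor gene that retinoic acid is known to induce, was at 29.2 to 73.2 CPM in NEO and OPE compounds, against 1.90 to 7.49 CPM in SPA compounds. Its log2 fold change was 3.72 ± 0.22 (SE, edgeR adjusted p = 1.1e-13). CYP26A1, which degrades retinoic acid and is also known to be induced by it, was lower, with a log2 fold change of -0.45 ± 0.10, as were the binding proteins CRABP1 (-1.28 ± 0.10) and CRABP2 (-0.39 ± 0.05). With S9, RARB fell by 2.11 ± 0.22 on the log2 scale, and it lay at 3.59 to 24.6 CPM in compounds with S9. DMSO against D0 called 6 of the 14 higher and 3 lower (29.1% of all genes in each direction).

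Genes that mark the HOX-free forebrain and midbrain went mostly the other way. Of 11 tested, 1 was higher and 9 lower in NEO and OPE compounds than in SPA compounds, where 33.1% and 33.4% of all genes were called in these directions, with a median log2 fold change of -1.91 beside 0.0081 over all genes tested. SIX3, a forebrain gene, had a log2 fold change of -2.01 ± 0.22 and lay at 41.8 to 197 CPM in NEO and OPE compounds against 154 to 512 CPM in SPA compounds. LHX5 and OTX2 were lower as well (-0.79 ± 0.11 and -0.74 ± 0.09), and the 1 higher gene was OTX1 (2.05 ± 0.16). With S9, 8 of the 11 were higher and 1 lower (15.7% and 17.9% of all genes), and in DMSO against D0, 9 were higher and 1 lower, with a median log2 fold change of 5.85 beside 0.039 over all genes, of which 29.1% were called in each direction.

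Of 8 tested genes of the isthmus and hindbrain, 2 were higher and 4 lower in NEO and OPE compounds than in SPA compounds, beside 33.1% and 33.4% of all genes. EN1, an isthmus gene, was higher (3.35 ± 0.50) but stayed at or below 0.61 CPM in every NEO and OPE library. EGR2, which marks rhombomeres 3 and 5, was lower (-0.88 ± 0.17), as was PAX2 (-1.27 ± 0.25). PAX8, like PAX2 a gene of the midbrain-hindbrain boundary, was higher (1.25 ± 0.26) with at most 0.997 CPM in the same libraries. In DMSO against D0, 3 of the 8 were higher and 0 lower (29.1% of all genes in each direction), EGR2 and PAX2 among the 3.

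A list of genes of the tail end of the embryo, not all of them established activators of HOX clusters, had 7 genes tested. In NEO and OPE against SPA compounds 1 was called higher and 1 lower, beside 33.1% and 33.4% of all genes. NKX1-2 was higher (0.59 ± 0.12) and FGF8 lower (-2.70 ± 0.37), and GDF11 and TBXT were not called. CDX1, CDX2, TBXT and WNT8A averaged under 1 CPM in all 24 groups. The other 5 of the 9 listed genes, CDX4 among them, passed 1 CPM in at least 1 group. The neighbour gene EVX1 averaged under 1 CPM in all 24 groups and was not tested, and EVX2 is not analysed here. Among 20 Polycomb, MLL and other chromatin regulators of HOX clusters, 10 were higher and 2 lower (33.1% and 33.4% of all genes), with a median log2 fold change of 0.13. KAT6A and EZH1 were called higher (0.17 ± 0.05 and 0.14 ± 0.05), whereas KDM6B and CBX8 were not called in that comparison but were higher in DMSO than in D0 (3.74 ± 0.25 and 2.64 ± 0.28), where 11 of the 20 were higher and 3 lower (29.1% of all genes in each direction). Of the ParaHox genes only GSX1 was tested, and it was lower in NEO and OPE compounds (-1.83 ± 0.45). GSX2 and PDX1 averaged under 1 CPM in all 24 groups.

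Several members share sequence or strand with other genes. The antisense genes HOXB-AS1, HOXB-AS2, HOXB-AS3 and HOXC13-AS overlap HOXB2, HOXB3 or HOXC13 in GENCODE, and whether the libraries kept strand is not stated, so their reads cannot be told apart. In 4 members, among them HOXB8 in 30 libraries and HOXA6 in 20, counts had decimals, so reads were shared with other genes. The authors' deposited table gave CYC against DMSO log2 fold changes of 8.24 for HOXB2, 5.33 for HOXB1, 4.4 for HOXB3 and 2.56 for HOXC13. Each had a q-value of at most 0.027 (DESeq2). HOXB1, HOXB3 and HOXC13 missed the threshold in the DESeq2 fit made here (adjusted p = 0.11, 0.19 and 0.074 in this order). Both used the same CYC and DMSO libraries, and the reason for the difference was not tested. The authors' deposited table gave ACE against DMSO a q-value of 0.016 for HOXB2.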

How the data were processed

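Poly(A) RNA of 48 libraries was sequenced on an MGI instrument per the labels' protocols and the submitters' processing notes name the build GRCh38.p13, while the aligner and counter were not given in the sources used here. Per gene, the authors deposited expected counts with decimals, TPM, and their own log2 fold changes with p-value and q-value from DESeq2 per the file headers, with the second named group over the first, as checked against the values computed here. Counts were rounded to whole numbers, which changed 43.4% of values. TPM served only to set genes of different length side by side.

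CPM were scaled with TMM factors of 0.848 to 1.05. Tests used edgeR 4.0.16 in R 4.3.3 (a group-wise filterByExpr filter, TMM factors, then glmQLFit with 1 coefficient per group, then glmQLFTest) over the 46 libraries of day 8 (16115 genes, 23 residual degrees of freedom), or over all 48 for D0 (16211 genes, 24 residual degrees of freedom). P-values were adjusted with Benjamini-Hochberg over all genes per comparison, with a threshold of 0.05. Where a group on the higher side of an averaged comparison was at 0 in all its libraries, the average could not be fitted. Fold changes against 0 use a floor of 3 counts over the group as a bound, and ratios of summed counts have exact 95% intervals. Floors and intervals cover counting error only.

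Members with a mean of at least 1 CPM in any group are named with values, and up to 4 genes per other list by smallest p in NEO and OPE against SPA or in DMSO against D0. Members and lists were chosen with earlier results of these data known. DESeq2 1.42.0, other size factors, no filter, subsets of groups, each library left out and a replicate block were tried as alternatives. The procedure was tested on simulated data. Gene positions are from GENCODE on GRCh38, and the promoter from RefSeq, in which 18 of 35 members matched. A member and a gene of another list entered every fit but are not reported here.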

Additional observations from a re-analysis of the deposited data

Results flagged for a closer look

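The effect of the NEO and OPE compounds on HOXB2 differed between treatment with S9 and without it, by the test of that difference (adjusted p = 0.0096, edgeR's quasi-likelihood test). The same test called 50.9% of 16115 genes, so the call is not particular to HOXB2. Of the other members just HOXC13 could be tested in the same way (adjusted p = 0.16, edgeR), since HOXB1 and HOXB3 could not be fitted and 31 members did not pass the filter on low counts. HOXB2 had 6 counts in the 12 libraries with S9 and 8 in DMSO_S9, against 197 counts in the 12 libraries without S9 and 0 in DMSO. IMI_S9, TEP_S9 and TPHP_S9 were also at 0 in both libraries. The fitted size is not given because it depends on the prior count. Both DMSO_S9 libraries stood apart from the other day 8 libraries, and the comparison uses them. Without IMI replicate 2, TEP replicate 1 or TPHP replicate 1 the test could not be fitted, since that compound was then at 0, and in the other 30 alternatives the adjusted p was 0.0032 to 0.034.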

How the results depend on the processing

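The number of HOX genes called in CYC against DMSO was 4, and 1 with DESeq2 and 2 to 3 when 1 library was left out. For ACE against DMSO it was 1, and 0 when only those groups were fitted and 0 to 1 when 1 library was left out, while DESeq2 gave no adjusted p. TEP against DMSO gave 0, and 0 to 3 when 1 library was left out. Over all 15 compounds against DMSO, 5 gene and compound pairs were called, and 1 with DESeq2 and 2 without either DMSO library. NEO and OPE against SPA compounds gave 3, and 1 to 3 when 1 library was left out, with HOXB1 and HOXB2 not fitted at the lowest, and 4 with 1 coefficient per family, with or without any 1 of 13 libraries. S9 against no S9 gave 2, 1 to 2 when 1 library was left out, and 4 with treatment and S9 or with compound and S9 as terms, compound and S9 also without any 1 of 12 libraries. The difference of compound effects with and without S9 gave 1, and 0 to 1 when 1 library was left out.

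Of 234 values of single called genes under the other settings, 222 stayed past the threshold, 12 did not and 0 turned round, and all 78 under settings added after seeing the data stayed. A further 13 could not be fitted, and 2 for HOXB2 in ACE gave no adjusted p. How often the called genes kept their calls is no independent support, since they passed the filter through the NEO and OPE libraries. With no filter on low counts HOXB7 was also called, higher in NEO and OPE than in SPA compounds (adjusted p = 0.0047, edgeR) and lower with S9 (adjusted p = 0.012, edgeR). Of 19213 genes in that setting, 5572 were called higher in the first comparison and 2867 lower in the second. HOXB7 had 31 counts in NEO and OPE compounds, 10 in SPA compounds and 5 with S9, with at most 7 in a library. Leaving out both DMSO_S9 libraries and DG replicate 1, chosen after seeing the data, gave 4 calls for CYC and 3 for NEO and OPE against SPA. Replicate numbers were not taken to pair the samples in the main fits. Over 253 pairs of groups the deviations of same-numbered libraries correlated at -0.43 to 0.51 (median -0.0082), with 73 pairs over 0.1. A median over all pairs of groups cannot exclude a replicate effect shared within a set of groups. MEIS1, for example, was higher in replicate 2 in all 9 SPA compounds and in DMSO. With the replicate block the counts were 4 for CYC, 1 for ACE, 3 for NEO and OPE against SPA, 2 for S9 and 1 for the difference of effects. Depth limits most members, since 27 of 35 never passed 3 counts.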
